A study of Homo sapiens with 16 samples.

Results

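The Hedgehog genes described here are the ligand genes SHH, IHH and DHH, the receptor gene PTCH1, the ligand-binding inhibitor gene HHIP, the signal transducer gene SMO and the transcription factor genes GLI1, GLI2 and GLI3. They were taken by name from the deposited normalized table, and are 9 of its 40888 genes. Read counts were to decide between identifiers of one symbol, but each symbol had 1 identifier, so read counts did not in fact choose any. The rise of SHH with enzalutamide in Vc was already known when the genes were picked, and it is given below as a description with no test.

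RNA was sequenced from VCaP, a human prostate cancer line that responds to androgen, as polyA libraries in 8 groups of 2, 16 in all. Ver cells had been grown with enzalutamide, a drug that blocks androgen action, at 1 µM over 4 months, and Vc cells for 4 months in ethanol, its solvent control. All groups were then starved for at least 48 h in medium without phenol red and with charcoal-stripped serum, which is low in steroids. Each line was treated for 24 h with 1 nM DHT (dihydrotestosterone, the potent natural androgen) plus 1 µM enzalutamide, with 1 nM DHT, with 1 µM enzalutamide, or as control. Ver and Vc are 1 line each, and the labels do not say whether the 2 libraries of a group come from separate cultures, so p-values measure the spread between these libraries, which may be technical. All Ver libraries carry lane 2 in their descriptions and all Vc libraries lane 8, so lane and line cannot be told apart.

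Hedgehog ligands are secreted proteins that carry lipids. Without a ligand, PTCH1 holds SMO inactive, and GLI3 is cut to a repressor. Ligand binding frees SMO, full-length GLI2 acts as the main activator, and GLI1, PTCH1 and HHIP are classic target genes. In the developing prostate the epithelium makes the ligand and the surrounding mesenchyme answers it.

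Levels are given as CPM, the reads of a gene per 1000000 reads of the library's TMM-scaled gene total, and as CPM per kilobase of exon where genes are compared with each other. The libraries held between 8155244 and 13273523 reads counted to genes. All 8 luminal epithelial markers had reads in every group, with summed levels of 4595 to 9470.3 CPM. The androgen-induced genes KLK3, FKBP5 and TMPRSS2 were higher with DHT in both lines (adjusted p of 2.9e-25 or lower in edgeR's quasi-likelihood test). Since these are bulk samples, fewer cells of a type and less RNA per cell cannot be told apart.

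Upstream stretches of 3 genes are shown because the results turn on the ligand genes and on PTCH1, a target of GLI factors. Each is the 250 bases before a RefSeq transcription start (GRCh38.p14, minus strand, written 5′ to 3′) that hold no annotated exon base. They lie at chr7:155812464-155812713 for SHH, chr2:219060922-219061171 for IHH and chr9:95509267-95509516 for PTCH1, the last being 1 of 5 PTCH1 starts in the table. Capitals mark the match to the GLI motif GACCACCCA, read here on the opposite strand.
SHH: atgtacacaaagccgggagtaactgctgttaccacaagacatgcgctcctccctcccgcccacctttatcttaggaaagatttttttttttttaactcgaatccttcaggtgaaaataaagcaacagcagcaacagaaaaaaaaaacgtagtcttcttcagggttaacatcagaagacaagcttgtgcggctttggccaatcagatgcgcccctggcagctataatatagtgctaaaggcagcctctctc
IHH: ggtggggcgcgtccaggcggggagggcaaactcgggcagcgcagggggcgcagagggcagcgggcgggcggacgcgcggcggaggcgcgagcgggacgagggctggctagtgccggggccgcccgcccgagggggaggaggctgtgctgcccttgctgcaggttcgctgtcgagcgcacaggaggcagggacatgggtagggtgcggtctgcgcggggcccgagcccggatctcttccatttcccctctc
PTCH1: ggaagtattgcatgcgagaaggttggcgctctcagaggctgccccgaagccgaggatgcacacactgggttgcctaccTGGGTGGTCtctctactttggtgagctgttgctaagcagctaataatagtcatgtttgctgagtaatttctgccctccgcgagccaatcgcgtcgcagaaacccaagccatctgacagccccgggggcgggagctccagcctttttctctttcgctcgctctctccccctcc
The 2 ligand genes differ in base composition here, with G and C making up 44.4% of the SHH stretch and 75.6% of the IHH stretch. The PTCH1 match begins 172 bases before the start. Over windows from 250 bases before to 50 after a start, the GLI motif was found on either strand in 83 of 35116 windows (0.236%). The palindromic androgen response element was found in 1 of them and the hexamer AGAACA, with which that element begins, in 5192 (14.8%). Windows were given for 7 of the 9 genes, 12 in all, and neither androgen motif was in any of them. The printed PTCH1 match was the only GLI motif among them, so the windows of the other PTCH1 starts held none. The printed PTCH1 stretch lies inside the annotated gene, which spans 95442980 to 95517057. A match is a string of letters and not a binding site, and the absence of one says nothing of the factor.

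SHH encodes Sonic hedgehog, the most widely used of the ligands (ENSG00000164690, minus strand of chromosome 7, 155799986 to 155812273 in GRCh38). Its level differed more between groups than that of any other well-counted member, from 3.76 CPM in Ver DHT to 233 CPM in Vc enzalutamide. That top group is the one whose rise was known beforehand, and Vc control came next at 159 CPM. In Ver, SHH had 7.33 and 7.47 CPM with DHT plus enzalutamide, 4.19 and 3.32 with DHT, 37.3 and 40.0 with enzalutamide, and 26.0 and 26.3 in control. In Vc it had 19.0 and 23.0 CPM with DHT plus enzalutamide, 11.5 and 11.4 with DHT, 231 and 235 with enzalutamide, and 158 and 159.6 in control. No group overlapped the next one in the order of levels, though with only 2 libraries a group. How many of all genes separate this way was not counted. Every group given DHT, in either line, lay below every group without it, and within each line enzalutamide was highest and DHT lowest.

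With DHT, SHH fell in both lines, to 14.4% of control in Ver and 7.2% of control in Vc. The log2 changes were -2.79 in Ver (SE 0.170, adjusted p = 4.35e-40) and -3.79 in Vc (SE 0.107, adjusted p = 2.04e-76), by edgeR's quasi-likelihood test with Benjamini-Hochberg adjustment over 22553 genes, which gave all adjusted p-values below. The fall was smaller in Ver, by 1.00 on the log2 scale (SE 0.199, adjusted p = 0.000461 for the difference of the 2 responses). Without Ver DHT replicate 1 that difference was 0.82 and no longer passed (adjusted p = 0.105). SHH was counted at 47 and 36 reads in the Ver DHT libraries, the lowest counts behind any SHH value.

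Enzalutamide alone went the other way for SHH. In Ver it was 1.48-fold higher than in control (log2 change 0.57, SE 0.0973, adjusted p = 2.14e-05). In Vc the 2 enzalutamide libraries lay above both control libraries, with a log2 change of 0.55 (SE 0.0696), given as a description. The difference between the lines in this response is not tested for SHH. Added to DHT, enzalutamide raised SHH 1.96-fold in Ver (log2 change 0.97, SE 0.200, adjusted p = 9.81e-06) and 1.83-fold in Vc (0.87, SE 0.120, adjusted p = 4.15e-10). With both compounds SHH stood at 28.3% of control in Ver and 13.2% of control in Vc.

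IHH, Indian hedgehog, is the ligand best known from cartilage and gut epithelium (ENSG00000163501, minus strand of chromosome 2, 219054420 to 219060467). It moved the same way as SHH with each compound, but its DHT response was larger in Ver. In Ver, IHH had 18.9 and 20.2 CPM with DHT plus enzalutamide, 5.26 and 4.52 with DHT, 33.6 and 33.8 with enzalutamide, and 24.9 and 24.3 in control. In Vc it had 49.3 and 50.2 CPM with DHT plus enzalutamide, 29.97 and 27.3 with DHT, 100.1 and 106 with enzalutamide, and 74.2 and 75.5 in control. Again no group overlapped its neighbour in level, with the same limits as for SHH, and Vc was above Ver under each treatment.

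DHT lowered IHH by 2.33 on the log2 scale in Ver (SE 0.159, adjusted p = 2.67e-32), against a fall of 1.38 in Vc (SE 0.0974, adjusted p = 4.43e-28). The log2 change was -0.95 in Ver minus Vc (SE 0.186, adjusted p = 0.000146), so the DHT responses of the 2 ligand genes differed between the lines in opposite directions. Added to DHT, enzalutamide raised IHH 3.99-fold in Ver (log2 change 1.997, SE 0.163, adjusted p = 3.35e-24) and 1.73-fold in Vc (0.79, SE 0.1001, adjusted p = 1.83e-11). This difference was 1.21 (SE 0.191, adjusted p = 2.62e-06), and IHH was the only well-counted member for which it passed. With both compounds IHH was back to 79.5% of control in Ver and 66.4% in Vc.

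Enzalutamide alone raised IHH 1.37-fold in Ver (log2 change 0.45, SE 0.108, adjusted p = 0.00775) and 1.38-fold in Vc (0.46, SE 0.0863, adjusted p = 0.000206). The Ver call rested on all 4 libraries, since leaving out any one gave an adjusted p between 0.0549 and 0.147. The Vc call was lost without Vc enzalutamide replicate 2 (adjusted p = 0.0745). Per kilobase of exon, IHH had 2.42 ± 0.259 CPM and SHH 0.746 ± 0.122 in Ver DHT, while in Ver control IHH had 12.2 ± 0.207 and SHH 5.19 ± 0.0433. In Vc control the 2 ligand genes were closer, with 37.0 ± 0.457 CPM per kilobase for IHH and 31.5 ± 0.187 for SHH (SD, n = 2 each).

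DHH, Desert hedgehog, which is made by Sertoli and Schwann cells, was close to silent. It had 20 reads over the 16 libraries and at most 5 over the 2 libraries of any group, and was left untested. Over a group, 3 counts correspond to 0.121 to 0.157 CPM, which limits what could be seen, and such floors cover counting error only.

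**Figure D1:**
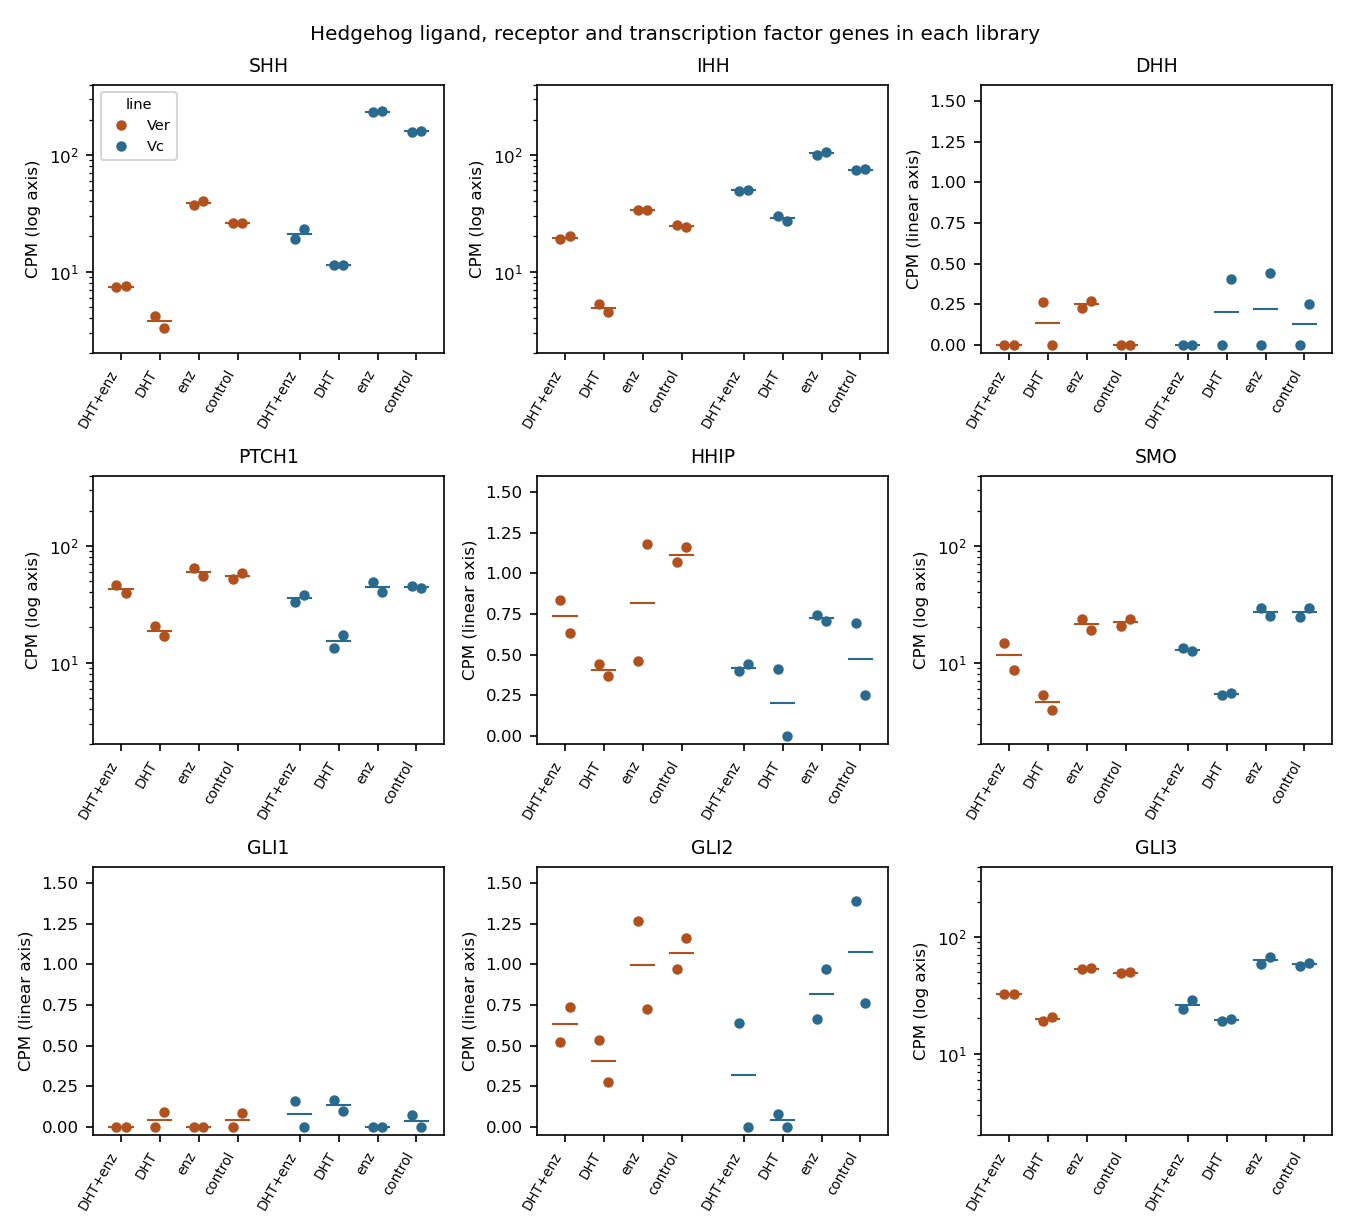
Level of each of the 9 genes in CPM, 1 panel per gene, with log axes for the 5 well-counted genes and linear axes for the others. Points are the 2 libraries of a group, short lines the group mean, Ver in orange left of Vc in blue, and enz is enzalutamide. SHH runs from 3.76 CPM in Ver DHT to 233 CPM in Vc enzalutamide, while DHH and GLI1 stay under 0.45 CPM in every library.

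PTCH1, the receptor, is also a target gene and therefore a common readout of the pathway (ENSG00000185920, minus strand of chromosome 9, 95442980 to 95517057). It fell with DHT in both lines, to 33.7% of control in Ver and 34.4% in Vc, and did not pass the test with enzalutamide alone. In Ver, PTCH1 had 46.3 and 39.3 CPM with DHT plus enzalutamide, 20.5 and 16.8 with DHT, 65.1 and 55.3 with enzalutamide, and 52.4 and 58.4 in control. In Vc it had 33.1 and 37.9 CPM with DHT plus enzalutamide, 13.4 and 17.2 with DHT, 48.7 and 40.5 with enzalutamide, and 45.4 and 43.5 in control. In each line the DHT libraries were below all others, and those with enzalutamide alone overlapped the control ones.

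The log2 change of PTCH1 with DHT was -1.57 in Ver (SE 0.116, adjusted p = 6.36e-26) and -1.55 in Vc (SE 0.121, adjusted p = 2.66e-24). The 2 responses differed by -0.02, with a 95% interval of -0.35 to 0.31. Enzalutamide on top of DHT raised PTCH1 2.29-fold in Ver and 2.34-fold in Vc (log2 changes 1.196, SE 0.119, and 1.22, SE 0.123; adjusted p = 1.53e-16 and 3.29e-16). Without androgen, enzalutamide gave log2 changes of 0.11 in Ver (95% interval -0.08 to 0.31) and 0.01 in Vc (-0.20 to 0.21). An antisense gene, AL161729.1, shares 4.29% of the PTCH1 exon bases. It had 84 reads over the 16 libraries, against 6916 for PTCH1, and counting without strand leaves reads on the shared bases out of both.

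HHIP binds ligand at the cell surface and keeps it from PTCH1. It was counted at 108 reads over the 16 libraries and 0 to 13 per library. Its libraries held 0.838 and 0.632 CPM in Ver DHT plus enzalutamide, 0.446 and 0.369 in Ver DHT, 0.460 and 1.18 in Ver enzalutamide, and 1.07 and 1.16 in Ver control. In Vc, HHIP reached at most 0.746 CPM. It passed the filter on low counts only through its higher groups, so no call of HHIP is reported from the test. With DHT the intervals of its log2 change ran from -3.03 to 0.18 in Ver and from -3.06 to 0.91 in Vc, so a fall of several-fold could not have been told from none at this depth.

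SMO is the membrane protein through which the signal enters the cell (ENSG00000128602, plus strand of chromosome 7, 129188872 to 129213545). None of its responses differed between the lines by the test. In Ver, SMO had 14.7 and 8.63 CPM with DHT plus enzalutamide, 5.26 and 3.97 with DHT, 23.7 and 19.0 with enzalutamide, and 20.6 and 23.8 in control. In Vc it had 13.2 and 12.5 CPM with DHT plus enzalutamide, 5.26 and 5.49 with DHT, 29.6 and 25.1 with enzalutamide, and 24.8 and 29.7 in control. The DHT libraries were the lowest in each line, those with both compounds came next, and enzalutamide alone overlapped control.

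DHT lowered SMO to 20.8% of control in Ver and 19.7% in Vc (log2 changes -2.26, SE 0.194, and -2.34, SE 0.184; adjusted p = 1.40e-22 and 2.31e-25). The difference between the lines was 0.08, with a 95% interval of -0.45 to 0.60. Enzalutamide on top of DHT raised SMO 2.52-fold in Ver (adjusted p = 1.49e-08) and 2.40-fold in Vc (adjusted p = 1.32e-08), to 52.5% and 47.3% of control. The antisense gene AC011005.4 shares 2.99% of the SMO exon bases and had 79 reads, against 2954 for SMO.

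GLI3, mostly known as the repressor of the family, was the only well-counted GLI gene (ENSG00000106571, minus strand of chromosome 7, 41960950 to 42237870). In Ver, GLI3 had 32.1 and 32.6 CPM with DHT plus enzalutamide, 19.0 and 20.5 with DHT, 52.9 and 54.1 with enzalutamide, and 49.4 and 49.6 in control. In Vc it had 24.0 and 28.5 CPM with DHT plus enzalutamide, 19.2 and 19.8 with DHT, 59.0 and 66.7 with enzalutamide, and 56.6 and 59.8 in control. The 2 lines overlapped under DHT and were apart under the other 3 treatments, though with only 2 libraries a group. The difference did not pass in control (adjusted p = 0.0755) or with enzalutamide (0.0873), and its call with DHT plus enzalutamide was not stable, as given below.

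GLI3 fell with DHT by 1.33 on the log2 scale in Ver (SE 0.109, adjusted p = 8.09e-23) and by 1.58 in Vc (SE 0.108, adjusted p = 1.89e-29). The difference, 0.25, did not pass (95% interval -0.05 to 0.55). Enzalutamide on top of DHT raised GLI3 1.64-fold in Ver (log2 change 0.71, SE 0.115, adjusted p = 7.04e-08). In Vc the rise was 1.34-fold (0.43, SE 0.115, adjusted p = 0.00221), and it was lost without Vc DHT plus enzalutamide replicate 2 (log2 change 0.30, adjusted p = 0.140). With both compounds GLI3 was at 65.4% of control in Ver and 45.1% in Vc.

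GLI2, the main activator, had 118 reads over the 16 libraries and 0 to 18 per library. In Ver it had 5 and 7 reads with DHT plus enzalutamide, 6 and 3 with DHT, 11 and 8 with enzalutamide, and 10 and 13 in control. In Vc it had 8 and 0 reads with DHT plus enzalutamide, 1 and 0 with DHT, 8 and 11 with enzalutamide, and 18 and 9 in control. In each line both DHT libraries lay below both control libraries, which at these low counts is a description only. The ratio of the summed CPM in Vc DHT to that in Vc control was 0.0416, from 1 read against 27, given as a description with no test. GLI2 and HHIP passed the filter on low counts only through their higher groups, so no call of GLI2 is reported from the test.

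GLI1, an activator and the most used target gene of the pathway, had 8 reads over the 16 libraries. No group held more than 3 over its 2 libraries, and 3 groups held none: Ver DHT plus enzalutamide, Ver enzalutamide and Vc enzalutamide. For those groups 3 counts correspond to 0.157, 0.152 and 0.128 CPM, and GLI1 RNA below that was not detectable. PTCH1 was measured at 13.4 to 65.1 CPM in libraries where GLI1 was at or near 0.

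Of the 9 genes, 7 could be tested. GLI2 and HHIP, with 118 and 108 reads, passed the filter only through their higher groups, so their calls are not read here. With DHT the other 5, SHH, IHH, PTCH1, SMO and GLI3, fell in each line. Of all 22553 tested genes 44.1% were called in Ver, 22.9% lower, and 44.3% in Vc, 22.5% lower. With enzalutamide alone SHH and IHH were higher in Ver, where 1.13% of all genes were called, 0.47% higher. In Vc IHH was higher, where 0.537% of all genes were called, 0.155% higher, and SHH is left out of that count because its rise there was known beforehand. On top of DHT, the same 5 genes as with DHT were higher in each line, where 26.9% of all genes were called in Ver, 13.7% higher, and 22.4% in Vc, 11.5% higher. The 3 sets of comparisons within a line share libraries, so they are not independent of each other.

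**Figure D2:**
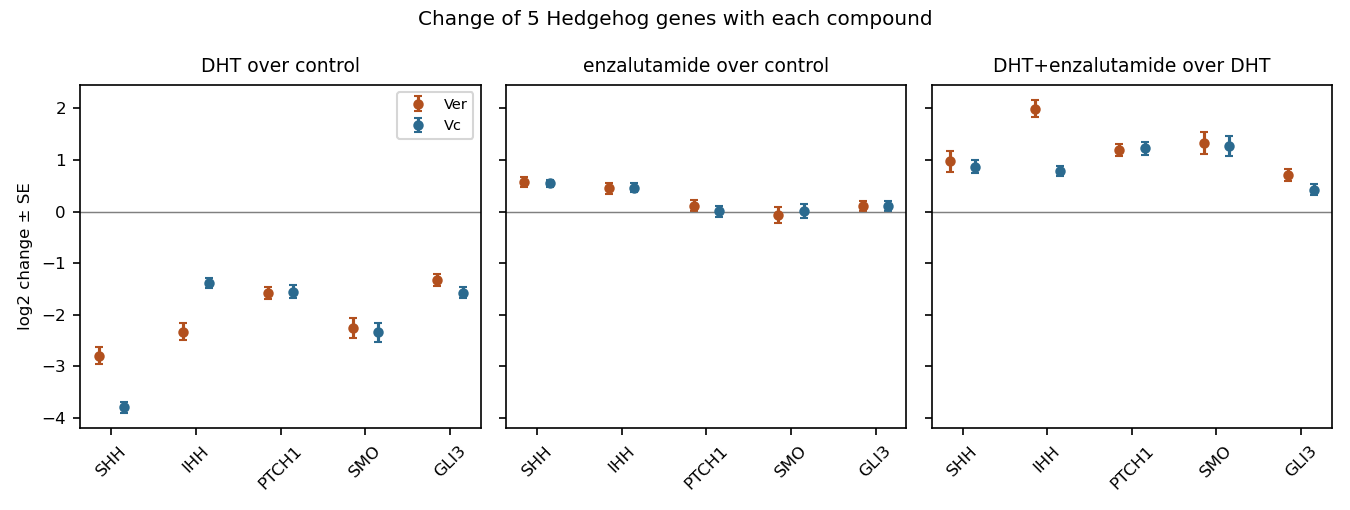
Log2 change ± SE of the 5 well-counted genes with each compound, Ver in orange left of Vc in blue. With DHT all 10 values lie below -1.3, SHH is lowest in Vc at -3.79, and on top of DHT the IHH value of Ver, 1.997, stands above the Vc value of 0.79.

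Among the 5 well-counted members, SHH and IHH differed most between the lines under each treatment. In control medium SHH was 6.07-fold lower in Ver, with 26.1 ± 0.218 CPM in Ver and 159 ± 0.940 in Vc (log2 change -2.60, SE 0.0873, adjusted p = 1.04e-61). IHH was 3.04-fold lower, with 24.6 ± 0.419 CPM in Ver and 74.9 ± 0.924 in Vc (log2 change -1.60, 95% interval -1.80 to -1.41, adjusted p = 1.11e-31; SD, n = 2 each). PTCH1 was 1.25-fold higher in Ver (0.32, SE 0.102, adjusted p = 0.0156). These made 3 of the 5 called, with GLI2 and HHIP not read, beside 18.9% of all genes. The PTCH1 call was lost without Vc control replicate 1 (adjusted p = 0.0541), Vc control replicate 2 (0.122) or Ver control replicate 2 (0.230), and in DESeq2 (0.0827).

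Both ligand genes were lower in Ver under every treatment. For SHH the log2 difference was -1.50 with DHT plus enzalutamide, -1.60 with DHT and -2.59 with enzalutamide. For IHH it was -1.34 with DHT plus enzalutamide, -2.55 with DHT and -1.62 with enzalutamide. The SHH value with enzalutamide is given as a description, since it uses the Vc group whose rise was known beforehand. The other values of both genes had adjusted p-values of 6.28e-15 or lower. The other calls between the lines were PTCH1 with enzalutamide (0.43, SE 0.103, adjusted p = 0.000786) and GLI3 with DHT plus enzalutamide (0.30, SE 0.109, adjusted p = 0.0329). PTCH1 there was lost without Vc enzalutamide replicate 2 or Ver enzalutamide replicate 1 (adjusted p = 0.111 and 0.0972). GLI3 was lost without Vc DHT plus enzalutamide replicate 1 or either Ver library of that treatment (adjusted p = 0.104 to 0.432), with no filter on low counts (0.0524) and in DESeq2 (0.0816). Of the well-counted members, 3 were called with DHT plus enzalutamide and 2 with DHT, beside 20.3% and 17.3% of all genes. With enzalutamide, SHH left out, IHH and PTCH1 were called, beside 16.6% of all genes.

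The lines' responses differed in few genes. For DHT, 2 of the 5 well-counted members (SHH and IHH) and 2.32% of all genes were called. For enzalutamide on top of DHT, 1 of these 5 (IHH) and 1.29% of all genes were called. For enzalutamide alone, with SHH left out, none of IHH, PTCH1, SMO and GLI3 and 0.0222% of all genes passed in edgeR. None of these members had an unadjusted p under 0.05, and DESeq2 called 2 of all genes where edgeR called 5.

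The position of the genes was set beside these line differences. Within 5 Mb of IHH, 68 other protein-coding genes were tested, their median log2 difference in control was -0.31, and 30 were lower in Ver and none higher. IHH itself, at -1.60, lay below the lower quartile of those genes, -0.57. Within 5 Mb of SHH the median of 39 genes was 0.02, with 6 higher and 5 lower. Within 1 Mb of PTCH1 the median of 10 genes was 0.30, close to the 0.32 of PTCH1, though within 5 Mb it was 0.17 with 12 genes higher and 12 lower. Around GLI3 the median of 41 genes was 0.22, against -0.23 for GLI3. The part of these regional shifts in the values of the Hedgehog genes was not tested.

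**Figure D3:**
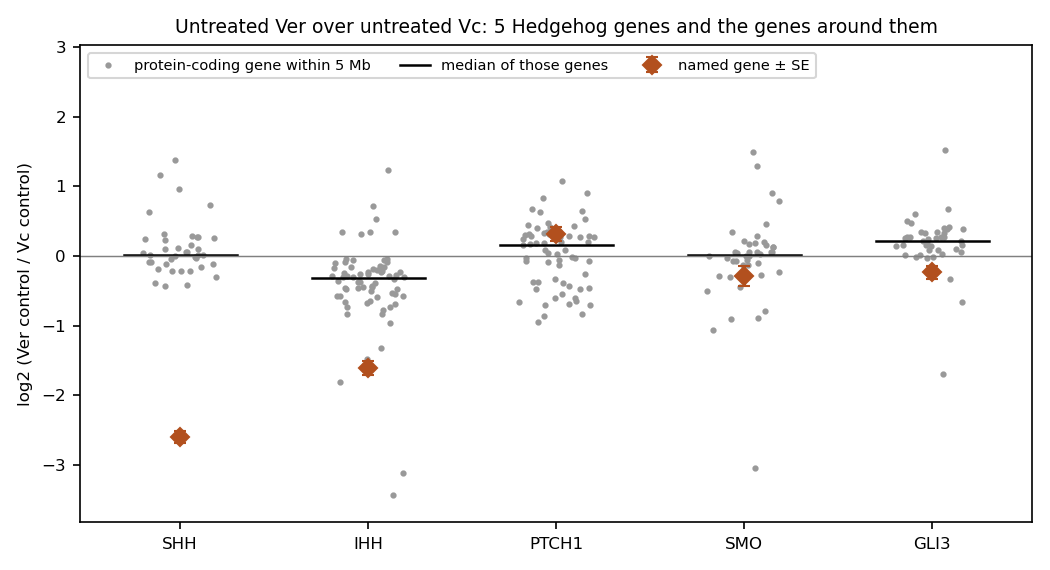
Log2 difference of Ver control over Vc control for 5 Hedgehog genes (orange diamonds, ± SE) and for the tested protein-coding genes within 5 Mb of each (grey points, with their median as a black line). SHH lies at -2.60 with its neighbours around 0.02, while the neighbours of IHH have a median of -0.31 and IHH lies at -1.60.

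The 4 protein-coding genes within 500 kb of SHH differed among themselves. RBM33, the nearest at 18501 bases, had 160 ± 12.7 CPM in Ver DHT and 176 ± 0.442 in Ver control, and 173 ± 1.89 CPM in Vc DHT and 189.5 ± 4.44 in Vc control (log2 changes -0.13 in each, adjusted p = 0.0506 in Ver and 0.0463 in Vc), and the Vc call was lost without any 1 of its 4 libraries (adjusted p = 0.0786 to 0.288), with RLE scaling, with no filter and in DESeq2. INSIG1, a sterol-responsive regulator of cholesterol synthesis at 489751 bases, rose with DHT by 2.25 in Ver and 2.58 in Vc (SE 0.0819 and 0.0783, adjusted p = 2.27e-22 and 1.36e-24). EN2, a homeobox gene, stayed at or below 3.99 CPM as a group mean. It was lower with DHT in Ver (log2 change -0.96, SE 0.392, adjusted p = 0.0354) and did not pass in Vc (-0.62, SE 0.428, adjusted p = 0.240). The Ver call was lost without Ver control replicate 2 (adjusted p = 0.274) or Ver DHT replicate 1 (0.332), with no filter and in DESeq2. Enzalutamide on top of DHT raised EN2 in Ver by 1.03 (adjusted p = 0.0378), lost without Ver DHT plus enzalutamide replicate 2 (0.417) or Ver DHT replicate 1 (0.342), with no filter and in DESeq2. CNPY1 had 1 read in all.

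Among 12427 tested genes with a mean of at least 5 CPM, those whose 8 group means on the log2(CPM + 1) scale followed SHH most closely were GGT7, CMYA5, HERC1, LINC01106 and USP24, with Pearson's r of 0.990 to 0.998. The 5 that ran most opposite were AF131215.5, ADAM9, APLP2, KLHL42 and MFSD14B, with r of -0.994 to -0.990. The 8 points share lines and treatments, so the values are descriptions over 8 groups with no p. GGT7 had 15.6 CPM with both compounds, 13.5 with DHT, 21.2 with enzalutamide and 20.2 in control in Ver, and 19.3, 17.2, 31.0 and 27.7 CPM in the same order in Vc, the same order of groups as SHH over a much smaller range. ADAM9, a membrane protease gene, had 220 CPM with both compounds, 310 with DHT, 123 with enzalutamide and 131 in control in Ver. Of the other members IHH had an r of 0.89, SMO of 0.86, GLI3 of 0.85 and PTCH1 of 0.56, at ranks 707, 1052, 1184 and 3576.

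A list of 42 other pathway genes, ordered by role, had 35 tested members. With DHT 27 were called in Ver (14 higher, 13 lower) and 24 in Vc (14 higher, 10 lower), beside the 44.1% and 44.3% of all genes given above. The list's median log2 change was 0.05 in each line, and its called genes went in both directions. Of all genes 21.2% were higher with DHT in Ver and 21.8% in Vc.

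Genes that prepare and release the ligands split. SCUBE2, a secreted protein that helps lipid-bearing ligand leave the cell, had 4.76 CPM in Ver DHT and 36.8 in Ver control, and 9.55 CPM in Vc DHT and 57.8 in Vc control. Its log2 change was -2.95 in Ver (SE 0.171, adjusted p = 1.80e-39) and -2.61 in Vc (SE 0.138, adjusted p = 5.02e-41). HHAT, the enzyme that attaches palmitate to the ligands, fell by 2.18 in Ver and by 1.95 in Vc (adjusted p = 4.05e-20 and 3.31e-18), a gene outside the 6 of smallest adjusted p there and named after its values were seen. DISP2, a relative of the ligand exporter DISP1, rose, with 32.9 CPM in Ver DHT and 3.04 in Ver control, and 44.9 CPM in Vc DHT and 4.68 in Vc control (log2 changes 3.44, SE 0.210, and 3.26, SE 0.175; adjusted p = 1.45e-38 and 1.19e-41). DISP1, which does the export, did not pass in Ver (-0.11, adjusted p = 0.664) and was 0.50 higher in Vc (adjusted p = 0.00915), a call lost without Vc control replicate 1 (0.237) and in DESeq2 (0.0523). DISP1 too was named after its values were seen.

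With enzalutamide added to DHT, HHAT rose 4.07-fold in Ver (log2 change 2.02, SE 0.210, adjusted p = 8.41e-17). In Vc, where HHAT was named after its values were seen, the rise was 2.30-fold (log2 change 1.201, SE 0.204, adjusted p = 2.51e-07), and the difference between the lines did not pass (adjusted p = 0.161). DISP2 fell in both lines, by 1.004 in Ver (SE 0.145, adjusted p = 2.19e-09) and by 1.05 in Vc (SE 0.134, adjusted p = 3.39e-11). SCUBE2 differed between the lines in this step, by 1.21 (SE 0.257, adjusted p = 0.00170): it had 8.97 CPM with both compounds and 4.76 with DHT in Ver, and 7.70 CPM with both and 9.55 with DHT in Vc. Without Ver DHT plus enzalutamide replicate 1 that difference was 0.76 and did not pass (adjusted p = 0.334). Enzalutamide alone raised HHAT 1.52-fold in Ver (adjusted p = 0.0140) and SCUBE2 1.36-fold in Vc (adjusted p = 0.0140). BOC fell in Ver with enzalutamide alone, to 0.703 of control (adjusted p = 0.0466). These were 2 of 35 in Ver, beside 1.13% of all genes, and 1 of 35 in Vc, beside 0.537%, and none remained when any 1 library of its comparison was left out.

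Among co-receptors, CDON and BOC, which bind ligand beside PTCH1, moved apart. CDON fell with DHT by 1.05 in Ver (SE 0.0781, adjusted p = 5.44e-26), with 47.7 CPM in Ver DHT and 98.8 in Ver control. In Vc it fell by 0.92 (SE 0.0803, adjusted p = 4.85e-21), with 41.3 CPM in Vc DHT and 78.1 in Vc control. BOC rose in both lines, by 0.62 in Ver (SE 0.128) and 1.27 in Vc (SE 0.124), and its responses differed by -0.65 (SE 0.179, adjusted p = 0.0227). That difference was lost without Vc control replicate 1, Vc DHT replicate 2, Ver control replicate 1 or Ver DHT replicate 2 (adjusted p = 0.102 to 0.188) and in DESeq2 (0.0613). The BOC changes with DHT were named after their values were seen. On top of DHT, enzalutamide raised CDON by 0.92 in Ver (SE 0.0793, adjusted p = 1.40e-20) and 0.72 in Vc (SE 0.0814, adjusted p = 9.58e-14).

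Of 13 tested transducers, 4 rose and 6 fell with DHT in Ver, and 3 rose and 4 fell in Vc, beside 44.1% and 44.3% of all genes called. The Ver calls of SUFU and GPR161, both lower and both negative regulators of the pathway, were not stable. SUFU was lost without Ver control replicate 2 (adjusted p = 0.178) or Ver DHT replicate 2 (0.0740) and in DESeq2 (0.0519). GPR161 was lost without any 1 of the 4 libraries, with RLE scaling, with no filter and in DESeq2 (adjusted p = 0.05003 to 0.151). SUFU and GPR161 were named after their values were seen. GRK2, a kinase that phosphorylates SMO, had 701 CPM in Ver DHT and 314 in Ver control, and 839 CPM in Vc DHT and 340.3 in Vc control (log2 changes 1.16 and 1.30, adjusted p = 9.22e-48 and 7.83e-54). EVC, a ciliary protein that passes the signal on from SMO, fell by 1.08 in Ver and 0.99 in Vc (adjusted p = 2.17e-25 and 1.10e-22). The list held 6 genes in the role of kinases or ubiquitin ligase components acting on GLI proteins. All 6 rose with DHT in each line, beside 21.2% of all genes higher in Ver and 21.8% in Vc. The Ver call of BTRC, a ubiquitin ligase component named after its values were seen (log2 change 0.29, adjusted p = 0.00232), was lost without Ver control replicate 2 (0.17, adjusted p = 0.209) or Ver DHT replicate 2 (0.22, adjusted p = 0.0772). CSNK1A1 rose by 0.73 in Ver and 0.77 in Vc (adjusted p = 5.90e-27 and 7.54e-29). The 6 genes of that role also act in many other pathways. Kinase genes listed under another role went both ways with DHT. ULK3 had 57.4 CPM in Ver DHT and 82.4 in Ver control, and 68.5 CPM in Vc DHT and 92.8 in Vc control. DYRK2 had 22.5 and 37.2 CPM in Ver and 16.4 and 34.1 in Vc, in the same order. STK36 had 43.2 and 40.3 CPM in Ver and 52.3 and 47.1 in Vc, and GRK2 rose as given above. ULK3, DYRK2 and STK36 were named after their values were seen.

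Of 10 genes known as GLI targets in other tissues, 5 were tested. With DHT 1 rose and 4 fell in Ver, and 1 rose and 2 fell in Vc, where 44.1% and 44.3% of all genes were called. CCND1, the cyclin D1 gene, was the one that rose, with 528 CPM in Vc DHT and 337 in Vc control (log2 change 0.65, SE 0.0501, adjusted p = 1.27e-24). JAG2, a Notch ligand gene, rose with enzalutamide on top of DHT by 0.65 in Ver and 0.50 in Vc (adjusted p = 8.70e-13 and 1.77e-08). CCND2, MYCN, FOXF1, FOXF2 and FOXL1 were not tested for want of reads.

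Between the lines in control medium 11 of 35 were called (6 higher, 5 lower), beside the 18.9% of all genes. SCUBE2 was lower in Ver (36.8 CPM in Ver and 57.8 in Vc, log2 difference -0.65, SE 0.111, adjusted p = 7.98e-07). TULP3, a ciliary trafficking gene, was higher (23.5 CPM in Ver and 14.2 in Vc, 0.72, SE 0.134, adjusted p = 5.66e-06), as was SFRP1, a gene of a secreted Wnt antagonist (1.202, SE 0.277, adjusted p = 0.000304). CUL3 (-0.44, adjusted p = 1.86e-06) and LRP2 (-1.83, adjusted p = 0.000268) were lower, LRP2 not passing without Vc control replicate 2 (-1.37, adjusted p = 0.0556).

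**Figure D4:**
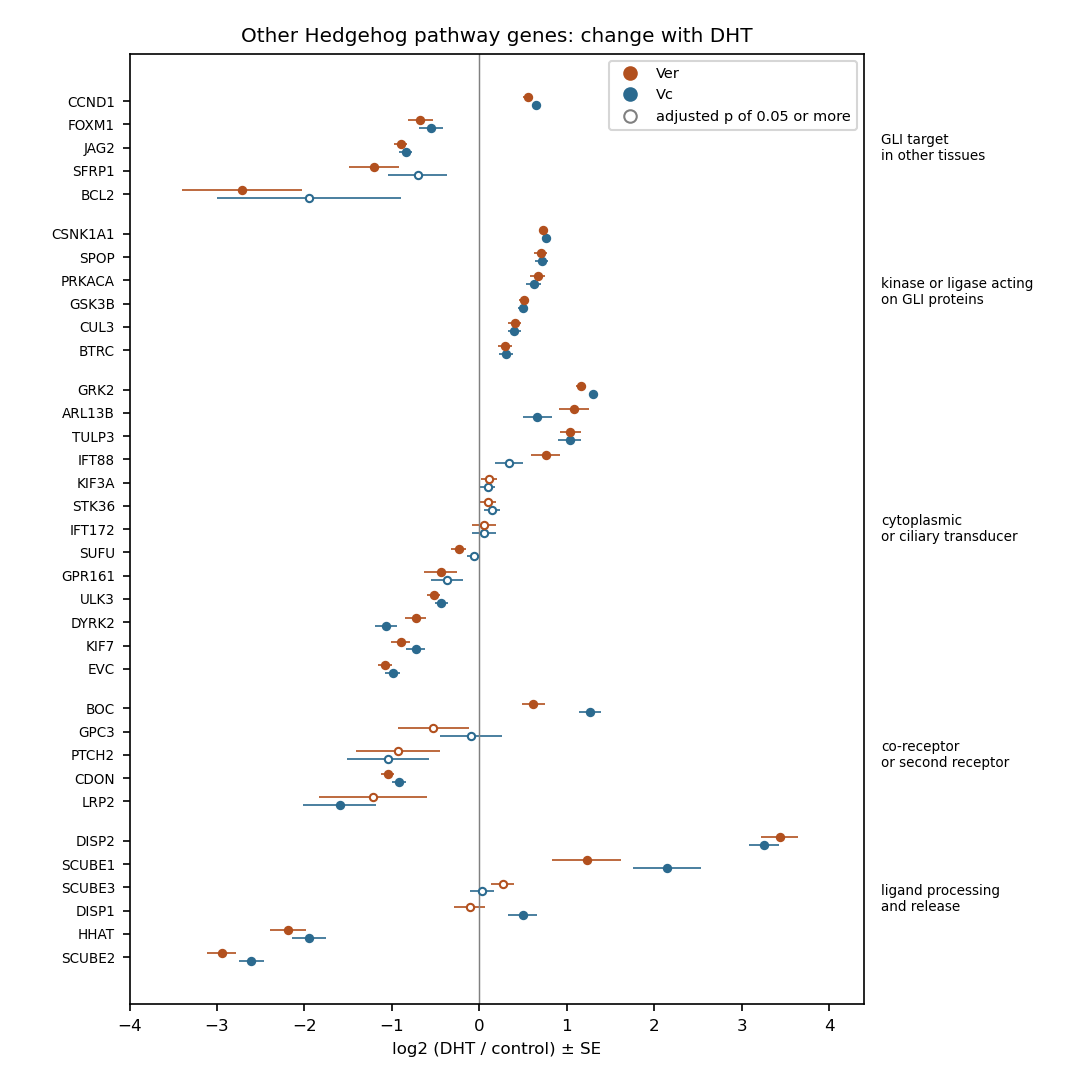
Log2 change ± SE with DHT over control for the 35 tested pathway genes outside the 9 members, grouped by role, Ver in orange above Vc in blue. Filled points had an adjusted p under 0.05. The 6 genes listed in the role of kinase or ligase acting on GLI proteins all lie above 0. DISP2 is highest at 3.44 and 3.26, and SCUBE2 is lowest at -2.95 and -2.61.

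Markers of other cells were measured as well. The basal epithelial marker KRT5 had no read, and TP63 had reads only with both compounds, 3 in Ver and 1 in Vc. KRT14, the third basal marker, had reads in every group and was highest with both compounds, at 1.78 ± 0.735 CPM in Ver and 0.414 ± 0.174 in Ver control, and at 1.51 ± 0.138 CPM in Vc and 0.281 ± 0.0375 in Vc control (SD, n = 2 each). The summed level of the 9 stromal markers ran from 20.1 to 29.7 CPM in Ver DHT plus enzalutamide, 3.83 to 4.15 in Ver DHT, 78.3 to 86.6 in Ver enzalutamide and 55.3 to 62.3 in Ver control. In Vc it ran from 7.49 to 8.27, 2.96 to 4.27, 22.5 to 22.7 and 17.7 to 19.2 CPM in the same order. Within each line the sum was highest with enzalutamide and lowest with DHT, the order seen for SHH, while in 3 of the 4 treatments it was higher in Ver, the reverse of SHH. Most of the sum outside the DHT groups was LUM, at 53.4 CPM in Ver control and 13.8 in Vc control, and 6 or 7 of the 9 markers were under 1 CPM in every group. The 4 neuroendocrine markers summed to 38.1 to 83.8 CPM, highest with both compounds in each line, but did not move together. INSM1 carried the high sum, at 57.6 ± 9.87 CPM with both compounds and 34.2 ± 1.88 in control in Ver, and at 37.1 ± 2.56 CPM with both and 17.2 ± 4.51 in control in Vc. SYP was highest with DHT, at 15.5 ± 1.14 CPM in Ver and 20.2 ± 0.692 in Vc. CHGA was lower in Ver under every treatment, with group means of 2.72 to 4.82 CPM in Ver and 11.7 to 15.3 in Vc. The part of these markers in the results was not tested.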

How the data were processed

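PolyA libraries of VCaP cells were read from 1 file of read counts per gene and library, which the authors deposited. Per the submitters' processing notes, FastQC 0.11.7, Trimmomatic 0.36-5, HISAT2, SAMtools and HTSeq 0.11.1 were used with GRCh38; the file names give union mode without strand. The authors also deposited a normalized signal per gene, equal to counts divided by a size factor (within 0.05 counts for every gene), used for gene names only. Of 58302 genes, 22553 passed edgeR's filterByExpr (minimum count 10, by group). Reads in no gene (45.0 to 50.6%) stayed out of totals. Counts were scaled by TMM and tested with edgeR 4.0.16 (quasi-likelihood, R 4.3.3) in 1 model of 8 groups with 13 contrasts, a call being an adjusted p (Benjamini-Hochberg) below 0.05. SE is the larger of the quasi-likelihood and Poisson values, and 95% intervals are 1.96 SE on either side. The code was tested on simulated counts. Positions and exon lengths came from GENCODE release 29. The members, lists and tests were chosen with earlier results of these data known. Named were the 9 members, up to 6 called pathway genes of smallest adjusted p per comparison, the 5 genes most and least like SHH, the genes within 500 kb of SHH, and KLK3, FKBP5 and TMPRSS2. Alternatives were other scaling (RLE), no filter, a minimum count of 30, DESeq2 1.42.0, a fit of the contrast's groups only, a replicate block, and each library left out.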

Additional observations from a re-analysis of the deposited data

Results flagged for a closer look

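The test of the difference between Ver and Vc passed for 3 member responses. Of all genes, 2.32% were called for the response to DHT and 1.29% for enzalutamide on top of DHT. The response of SHH to DHT differed by 1.00 on the log2 scale, the fall being smaller in Ver (-2.79) than in Vc (-3.79). Without Ver DHT replicate 1 that SHH difference was 0.82 and no longer passed. The response of IHH to DHT differed by -0.95, the fall being larger in Ver (-2.33) than in Vc (-1.38). The effect of enzalutamide on top of DHT on IHH differed by 1.21, with 1.997 in Ver and 0.79 in Vc. Since Ver and Vc also differ in lane, what these differences come from cannot be told apart.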

How the results depend on the processing

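The counts of members here include GLI2, HHIP and the SHH values that use the Vc enzalutamide group, which the results above leave out. Of 39 called member values over the 13 comparisons, 32 kept call and direction under every alternative, 7 lost the call under at least 1, and none reversed. Of 52 uncalled values, 5 gained a call under at least 1 alternative and 29 changed sign in at least 1. In the fit of the contrast's groups only, 5 members were called in Ver against Vc with enzalutamide, where 3 were called in the full fit. DESeq2 called 10 rather than 17 other pathway genes in Ver against Vc with DHT plus enzalutamide, 0 rather than 1 for the difference in response to DHT and 0 rather than 1 for the difference in enzalutamide on top of DHT. For enzalutamide in Ver, 1 pathway gene rather than 2 was called with RLE scaling, no filter, the contrast's groups only and DESeq2. DESeq2 gave no adjusted p for the members with enzalutamide in Vc. Over all genes, DESeq2 called 344 rather than 523 for the difference in response to DHT. For the difference in response to enzalutamide, where 5 were called, the counts were 10 with the contrast's groups only and 2 in DESeq2.

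With 1 library left out, all genes called ranged from 112 to 174 for enzalutamide in Ver (255 with all libraries), 47 to 62 in Vc (121), 2828 to 3191 for Ver against Vc in control (4252), and for the differences between the lines 300 to 529 in response to DHT (523), 1 to 4 to enzalutamide (5) and 93 to 357 to enzalutamide on top of DHT (291). Members called ranged from 1 to 1 for enzalutamide in Ver, 1 to 2 for enzalutamide in Vc, and 1 to 2 for the difference in response to DHT. Pathway genes called ranged from 0 to 0 for enzalutamide in each line, 11 to 14 for enzalutamide on top of DHT in Vc, 7 to 10 for Ver against Vc in control and with DHT plus enzalutamide, 0 to 1 for the difference in response to DHT and 0 to 2 for that in enzalutamide on top of DHT. The causes were not tested. The replicate numbers did not pair the libraries (correlations of deviations of -0.12 to 0.11 over 28 pairs of groups), and the replicate block changed no member call: with it 5 members were called for DHT in Ver and 6 in Vc. In the crossed pairing of Ver DHT and Ver control, added after seeing the data, 5 members and 9658 of all genes were called for DHT. Of the 10 genes named as most or least like SHH, 8 stayed among the 5 on either side with a pseudocount of 0.25 and 7 with Spearman's correlation, where many genes tie. Depth limits GLI2, HHIP, DHH and GLI1.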
